A study of Mus musculus with 6 samples.

Results

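Slc39a9 encodes ZIP9, a zinc transporter, and 10 zinc transporter genes including it were followed here in the RNA of activated mouse T cells. The 10 genes are Slc39a9, Slc39a1, Slc39a3, Slc39a6, Slc39a7, Slc39a8, Slc39a10, Slc30a1, Slc30a5 and Slc30a7, out of 52550 genes listed in the deposited tables. They were taken by matching the identifier of each row to these symbols, and all 10 were found. Slc39a9 was chosen by its change between the same samples, since it was 1 of 2 genes past the adjusted threshold of the comparison over all genes. All its values between the groups are therefore given as a description, with no test. The other 9 were added as relatives expressed in these cells.

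Splenic CD3+ T cells of wild-type mice, held as primary cultures, were activated for 24 h with an activator that binds CD3 and CD28. CD3 is part of the T cell receptor (TCR) complex, and CD28 is a costimulatory receptor. In the group TCR alone (n = 3) nothing else was added, and in the group TCR+DMGV (n = 3) the medium also held DMGV (dimethylguanidino valeric acid) at 100 ng/ml. The labels name the compound DMGV, while the study's text and supplementary legend for its RNA sequencing name LNY1, with a dose of 100 ng/ml in the legend. LNY1 is a factor purified from fibroblast-conditioned medium. The study treats it as asymmetric and symmetric dimethylarginine, which it describes as converted to DMGV in cells. The identity of the added compound therefore rests on the labels here. The labels call the samples biological replicates, without saying whether each came from its own mouse. The study's methods give young C57BL mice of both sexes for its animals in general, and the labels do not say which were used for each sample. Both groups were activated, and an unstimulated sample was not analysed here.

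Cells hold zinc mostly bound to protein, and membrane transporters set how much is free. The ZIP proteins, encoded by the Slc39 genes, move zinc into the cytosol from outside the cell or from organelles, and the ZnT proteins, encoded by the Slc30 genes, move it out of the cytosol, across the plasma membrane or into organelles. Zinc entering the cytosol of T cells takes part in signalling after the receptor is engaged, and the zinc-sensing factor MTF1 turns on metallothionein genes and Slc30a1 when cytosolic zinc rises. ZIP9 is found at the Golgi apparatus and the plasma membrane and has also been described as a membrane receptor for androgens.

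Of all genes, 22526 had a count in some sample, and the total count of a sample lay between 37758725 and 43718867. On the first principal component, which held 32.2% of the variance of log2 CPM (counts scaled to the library total), TCR alone replicate 3 and TCR+DMGV replicate 1 lay apart from the other 4 samples, 1 from each group. The samples matched their label: 6 T cell markers (Cd3e, Cd3d, Cd3g, Cd2, Lck and Cd28) summed to between 502 and 554 FPKM in TCR alone and between 517 and 593 in TCR+DMGV, where FPKM is fragments scaled to gene length and library size. The summed level of 4 B cell markers stayed between 3.65 and 5.24 FPKM, of 5 myeloid markers between 2.40 and 3.74, and of 3 NK cell markers between 0.3004 and 0.795. The 2 red cell haemoglobin genes summed to between 2.40 and 2.99 FPKM in TCR alone and between 1.06 and 2.38 in TCR+DMGV, without overlap. Hba-a1 lay apart, at 1.12 to 1.35 against 0.267 to 0.940, and Hbb-bs overlapped. The 4 activation genes (Il2ra, Cd69, Myc and Tfrc) summed to between 317 and 365 in TCR alone and between 320 and 335 in TCR+DMGV. In the 2 samples apart on the first component Tfrc was at 32.7 and 31.8 FPKM, against 55.6 to 76.3 in the others. There Cd69 and Cd28 were also below the other samples, Myc, Cd3g, Cd2 and Lck were above them, and Il2ra, Cd3e and Cd3d overlapped them. None of these markers was called. The part of red cell RNA in any result was not tested, and in whole cultures fewer cells of a type and less RNA per cell cannot be told apart.

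Slc39a9 (ENSMUSG00000048833.9) lies on the forward strand of chr12:80643883-80683342 in GENCODE M21, which annotates GRCm38. Of its 8 annotated transcripts, 4 carried nearly all the counts, and they differ in how they end. Slc39a9-201 has 7 exons and 5201 bases and encodes 308 residues, with its stop codon at the start of exon 7, an exon of 3863 bases. Slc39a9-208 leaves out exon 6, whose 135 bases are a multiple of 3, and encodes 263 residues. Slc39a9-204 runs on from exon 6 into the following intron for 1088 bases and ends there, so that 29 new codons replace the 76 codons of exon 7, for 261 residues in 2155 bases. Slc39a9-207, an incomplete model of 750 bases whose start is not annotated, leaves out exon 5, whose 86 bases shift the frame, meets a stop within exon 6 and holds only the first 401 bases of exon 7.

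**Figure D1:**
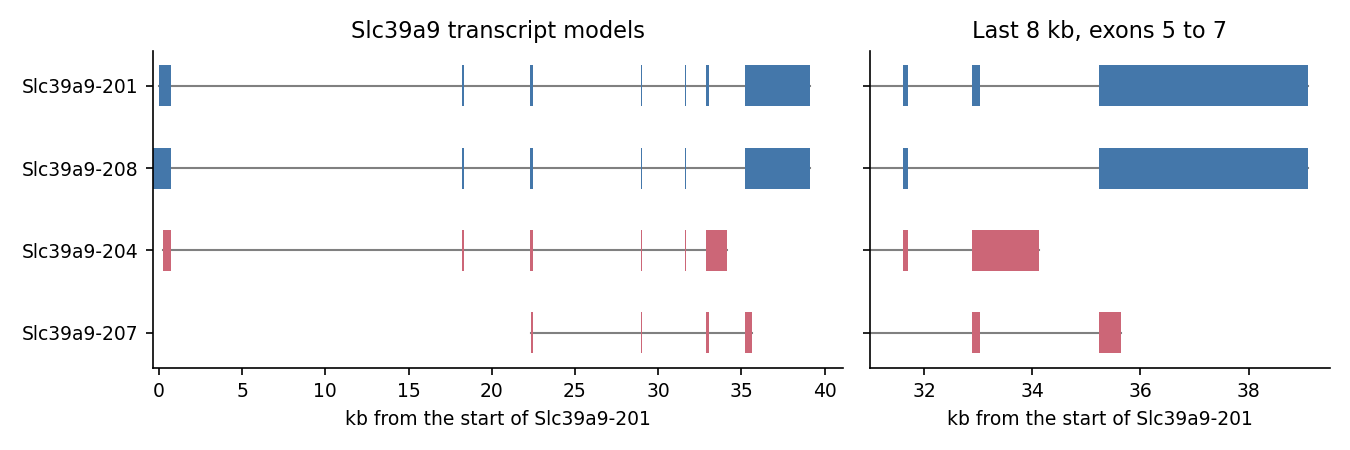
Exons (boxes) and introns (lines) of 4 Slc39a9 transcript models, as distance in kb from the start of Slc39a9-201, for the whole gene on the left and for exons 5 to 7 on the right. The models in blue (201 and 208) hold all 3863 bases of exon 7, while 204 ends in the intron after exon 6 and 207 holds 401 bases of exon 7.

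The coding bases at these junctions are shown because the results turn on them. Bases of exon 6 are in capitals and bases of any other exon or of the intron are in lower case, all 5′ to 3′ on the forward strand of chromosome 12 from GENCODE M21. Exon 5 is at chr12:80675849-80675934, exon 6 at chr12:80677132-80677266 and exon 7 at chr12:80679475-80683337, and Slc39a9-204 ends at position 80678354. The first pair starts at the same 30 bases of exon 6 and parts at its end: Slc39a9-201 goes on into exon 7, and Slc39a9-204 reads into the intron up to its stop codon, the last 3 bases shown. The third joins exon 4 to exon 6, and the fourth joins exon 5 to exon 7 and so holds no capitals.
Slc39a9-201: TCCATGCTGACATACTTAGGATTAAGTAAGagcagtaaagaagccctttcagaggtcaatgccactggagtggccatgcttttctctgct
Slc39a9-204: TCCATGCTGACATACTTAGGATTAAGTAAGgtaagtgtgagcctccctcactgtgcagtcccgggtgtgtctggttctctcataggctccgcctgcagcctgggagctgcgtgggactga
Slc39a9-207: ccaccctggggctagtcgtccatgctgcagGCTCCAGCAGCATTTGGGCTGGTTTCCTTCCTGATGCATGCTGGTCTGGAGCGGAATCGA
Slc39a9-208: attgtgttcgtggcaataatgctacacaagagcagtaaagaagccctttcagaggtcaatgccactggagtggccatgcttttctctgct

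The count of Slc39a9 was lower in TCR+DMGV in every sample. In TCR alone its CPM was 48.3, 46.9 and 45.5, and in TCR+DMGV it was 19.3, 16.4 and 18.7, from counts of 1834, 1914 and 1882 against 861, 708 and 742. The groups lay far apart, and each varied little: 46.9 ± 1.41 CPM (SD, n = 3) against 18.2 ± 1.53 (SD, n = 3). The fitted log2 fold change was -1.37 (SE 0.10), a fold of 2.58. Gene FPKM gave nearly the same ratio, 4.12 ± 0.123 (SD, n = 3) against 1.58 ± 0.156 (SD, n = 3), or 38.3% of the TCR alone mean where CPM gave 38.8%.

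The transcripts of Slc39a9 did not move together. Slc39a9-201, the form with the full exon 7, had counts of 1653, 1849 and 1777 in TCR alone against 413, 315 and 392 in TCR+DMGV, and its FPKM went from 7.51, 7.60 and 7.53 to 1.62, 1.23 and 1.65. Slc39a9-204, the form that ends in the intron after exon 6, went the other way, with counts of 40, 17 and 90 in TCR alone against 321, 328 and 297 in TCR+DMGV. Its FPKM was 0.433, 0.166 and 0.919 against 3.03, 3.09 and 3.02. Neither pair of groups overlapped, and the 3 TCR+DMGV samples of Slc39a9-204 lay close together.

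Slc39a9-207, the short form that lacks exon 5, was listed at 0 counts in all 3 TCR alone samples and at 50, 24 and 29 counts in TCR+DMGV. A count of 0 allows up to 3 counts a sample, a share of up to 0.164%, 0.157% and 0.159% of the gene's counts in TCR alone replicates 1, 2 and 3, where the share in TCR+DMGV was 4.37% ± 1.27 (SD, n = 3). This limit covers counting error only. Slc39a9-208, which leaves out exon 6, had 128, 34 and 7 counts in TCR alone against 73, 39 and 22 in TCR+DMGV, and its groups overlapped. Slc39a9-206, a fragment of 393 bases, had 11, 12 and 0 counts against 0 in each TCR+DMGV sample, and Slc39a9-202, Slc39a9-203 and Slc39a9-205 had at most 5 counts in any sample.

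**Figure D2:**
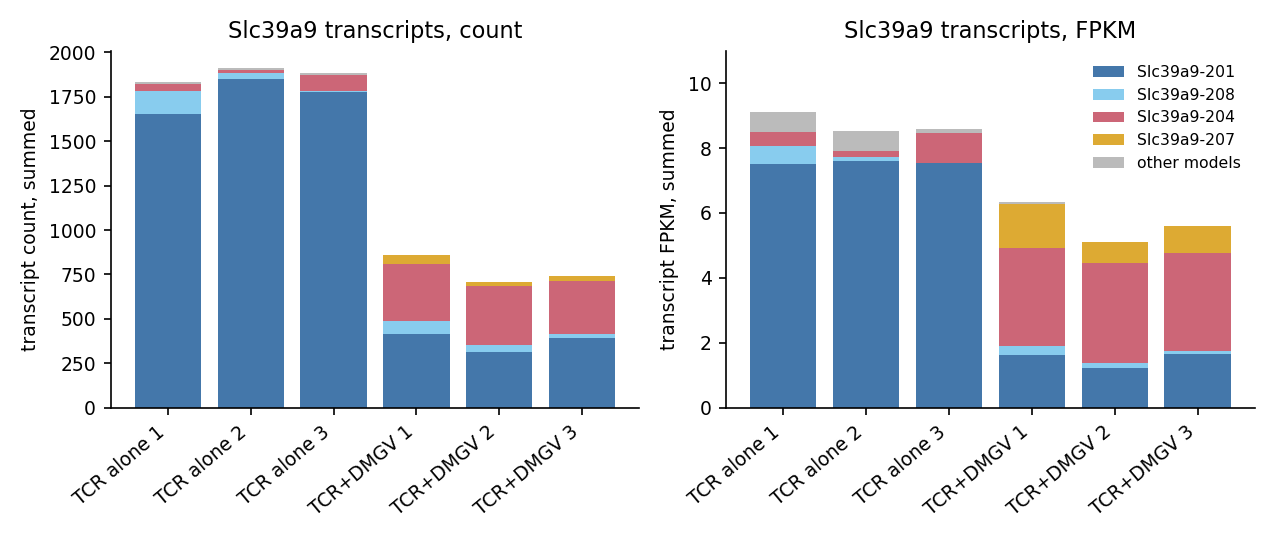
Counts (left) and FPKM (right) of the Slc39a9 transcripts, stacked by sample, with the 4 least abundant models summed as other models. Slc39a9-201 fills most of each TCR alone bar, and in TCR+DMGV Slc39a9-204 holds 297 to 328 counts and about 3 FPKM in every sample.

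As a share of the gene's counts, Slc39a9-201 went from 93.7% ± 3.29 (SD, n = 3) to 48.4% ± 4.19 (SD, n = 3), and Slc39a9-204 from 2.62% ± 1.98 (SD, n = 3) to 41.2% ± 4.64 (SD, n = 3). As a share of the summed transcript FPKM, which corrects for length, Slc39a9-204 went from 5.80% ± 4.48 (SD, n = 3) to 54.2% ± 6.32 (SD, n = 3) and was the most abundant form in TCR+DMGV. The transcripts with the full exon 7, 201 and 208 together, held 1781, 1883 and 1784 counts in TCR alone against 486, 354 and 414 in TCR+DMGV, a mean of 23.02% of the TCR alone level. Their share of the FPKM was 89.0% ± 1.47 (SD, n = 3) in TCR alone and 29.3% ± 2.16 (SD, n = 3) in TCR+DMGV.

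The size of the fall in Slc39a9 depended on whether length was taken per gene or per transcript. Transcript FPKM summed over the gene was 9.12, 8.53 and 8.58 in TCR alone and 6.33, 5.11 and 5.59 in TCR+DMGV, or 64.9% of the TCR alone mean, a log2 ratio of -0.62. The groups were still separate on this scale. Gene FPKM followed the count at a fixed length: it was between 0.866 and 0.911 times the CPM per kilobase of merged exons (10155 bases) in all 6 samples. The mean transcript length, weighted by FPKM, was 4743, 4794 and 4825 bases in TCR alone and 2762, 2806 and 2901 bases in TCR+DMGV. That is a log2 ratio of -0.76. Of the 7783 genes with several transcripts past the filter on low counts, 5% had a ratio below -0.15. In the other 9 genes the same ratio was between -0.02 and 0.10. Slc39a1 has 1 listed transcript, so its ratio could only be 0. The highest ratio, of Slc30a1, rested on 20 counts of Slc30a1-202 in TCR alone replicate 3. Slc39a9 was selected on its change between these samples, so its ratio beside theirs is a description and no test.

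**Figure D3:**
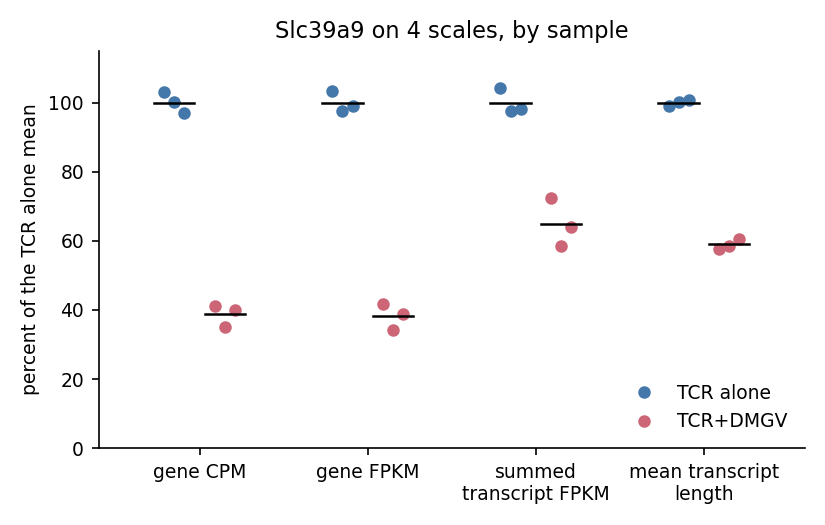
Slc39a9 by sample as percent of the TCR alone mean, for gene CPM, gene FPKM, summed transcript FPKM and the FPKM-weighted mean transcript length, with black lines for group means. TCR+DMGV lies at 38.8% and 38.3% on the gene scales and at 64.9% where each transcript's own length is used.

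Transcript counts were estimated by the authors' software, which shares reads between overlapping models, and reads over single exons were not analysed here. Erh overlaps the first 459 bases of Slc39a9 on the other strand and had 11118 to 15243 counts, with a log2 fold change of 0.02 (SE 0.10). It covers part of exon 1 and none of exons 5 to 7. The pseudogene Gm47874 inside the gene had at most 7 counts, and of the next genes Gm47879 had 3 to 24 counts and Plekhd1os none. Without TCR alone replicate 3 and TCR+DMGV replicate 1, the log2 fold change of Slc39a9 was -1.43.

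By level, Slc39a9 was in the middle of the 10 genes. In TCR alone the order by gene FPKM was Slc39a7 at 31.1 ± 2.20, Slc39a1 at 25.1 ± 2.20, Slc39a6 at 17.2 ± 2.08, Slc39a10 at 12.3 ± 1.81, Slc30a5 at 8.89 ± 0.481, Slc39a9 at 4.12 ± 0.123, Slc39a3 at 3.52 ± 0.688, Slc30a7 at 3.00 ± 0.288, Slc39a8 at 2.56 ± 0.0772 and Slc30a1 at 2.52 ± 0.342 (SD, n = 3 each). Neighbours in this order were apart in all 3 samples except Slc39a9 and Slc39a3, Slc39a3 and Slc30a7, and Slc39a8 and Slc30a1, whose ranges overlapped. In TCR+DMGV Slc39a9 had rank 10 by gene FPKM and rank 7 by summed transcript FPKM, at 5.68 ± 0.616 (SD, n = 3), where its range overlapped that of Slc39a8 at 5.78 ± 0.586 (SD, n = 3). By summed transcript FPKM Slc30a5 moved to rank 3 in TCR alone, at 20.97 ± 1.56 (SD, n = 3), and its range overlapped those of Slc39a1 and Slc39a6 beside it.

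**Figure D4:**
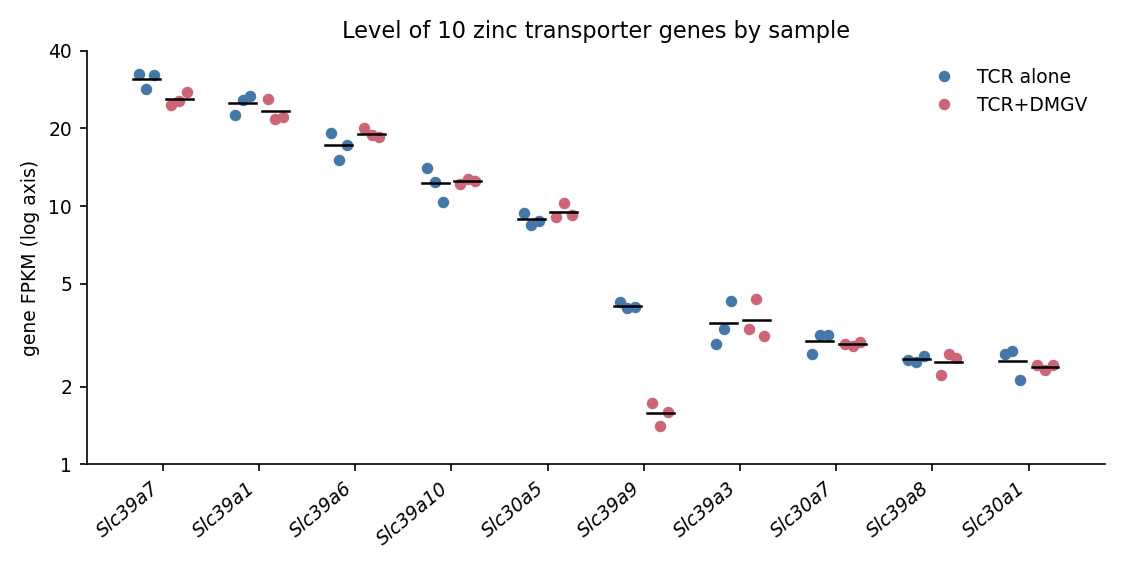
Gene FPKM (log axis) of the 10 zinc transporter genes in the 3 samples of each group, with black lines for group means, ordered by the TCR alone mean. Slc39a9 falls from rank 6 to below the other 9 genes, and of the rest only the groups of Slc39a7 do not overlap.

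None of the other 9 genes was called. In the edgeR quasi-likelihood fit to the whole table, 0 of 9 had an adjusted p under 0.05 (all 0.999), where 2 of 14786 genes (0.0135%) did. At an unadjusted threshold of 0.05 there was 1 of 9, and 3.19% of all genes. DESeq2 called 0 of 9 as well, with 1 of 9 at the unadjusted threshold. The median log2 fold change of the 9 was -0.02, beside 0.002 over all genes. By CPM the groups lay apart for 1 of 9, beside 8.86% of all genes. By summed transcript FPKM they lay apart for 3 of 9 (Slc39a7, Slc30a1 and Slc30a7, all lower in TCR+DMGV), beside 8.21% of all genes. For Slc30a1 this rested on 20 counts (0.640 FPKM) of the short Slc30a1-202 in TCR alone replicate 3. For Slc30a7 it rested on 36 counts (0.642 FPKM) of the short Slc30a7-204 in TCR alone replicate 1. The main forms of both genes had overlapping groups in FPKM.

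Slc39a7 (ENSMUSG00000024327.16, chr17:34028269-34031682) encodes ZIP7, which releases zinc from the endoplasmic reticulum. It was the gene with separate groups, at 94.1, 84.9 and 91.5 CPM in TCR alone and at 70.5, 75.7 and 82.6 in TCR+DMGV. The log2 fold change was -0.24 (SE 0.09), and it did not pass the adjusted threshold in edgeR (adjusted p = 0.999). Most of its counts sat on Slc39a7-204, a model with a retained intron, which held 54.6% of them in the mean of TCR alone and 63.4% in TCR+DMGV. By sample this share was 54.6%, 55.7% and 53.6% against 64.4%, 58.2% and 67.7%, without overlap. The counts of Slc39a7-204 were 1951, 1930 and 2032 against 2021, 1897 and 2215, with overlapping groups. Neither this transcript nor the transcript usage of the gene was called. Its coding forms Slc39a7-201 and Slc39a7-203 varied widely between samples of a group, Slc39a7-201 from 240 to 1185 counts in TCR alone and from 3 to 367 in TCR+DMGV. Gm20427 overlaps 3312 bases of Slc39a7 on the same strand, so reads there cannot be assigned to 1 gene with certainty. It was given 28 to 453 counts, with no separation by group.

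ZIP1 and ZIP3 import zinc across the plasma membrane. Slc39a1 (ENSMUSG00000052310.9, chr3:90248172-90253612) had 59.5, 70.0 and 69.5 CPM in TCR alone and 67.5, 58.8 and 60.3 in TCR+DMGV. The groups overlapped, with a log2 fold change of -0.09 (SE 0.10). Slc39a3 (ENSMUSG00000046822.13, chr10:81028538-81037426) had 13.2, 15.4 and 18.9 CPM against 14.9, 20.2 and 14.6, with a log2 fold change of 0.06 (SE 0.19) that changed sign when single samples were left out. Its counts were split over 3 coding transcripts, Slc39a3-201, Slc39a3-202 and Slc39a3-205, with mean shares in TCR alone of 27.3%, 26.9% and 44.3%, and the groups overlapped in the share of each.

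ZIP6 and ZIP10 are close relatives that can work as a pair at the plasma membrane. Slc39a6 (ENSMUSG00000024270.11) had 87.3, 70.3 and 77.4 CPM in TCR alone and 89.9, 87.8 and 86.5 in TCR+DMGV. Only TCR alone replicate 1 reached the TCR+DMGV range, and the log2 fold change was 0.17 (SE 0.10). Elp2 overlaps 952 bases of Slc39a6 on the other strand and had 7059 to 9532 counts, with a log2 fold change of 0.08 (SE 0.08). Slc39a10 (ENSMUSG00000025986.6, chr1:46807544-46892852) had 95.1, 86.7 and 69.5 CPM in TCR alone and 82.05, 88.7 and 87.7 in TCR+DMGV, with a log2 fold change of 0.04 (SE 0.12). Its lowest value was in TCR alone replicate 3, a sample that stood apart on the first component. Without both such samples the log2 fold change was -0.04. Inside Slc39a10, Gm28151 had at most 12 counts and Gm37393 none.

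Slc39a8 (ENSMUSG00000053897.15, chr3:135825279-135888572) encodes ZIP8, a carrier of zinc and manganese at the plasma membrane and lysosomes. It had 21.8, 21.9 and 22.3 CPM in TCR alone and 18.9, 23.5 and 22.8 in TCR+DMGV, and the groups overlapped, with a log2 fold change of -0.02 (SE 0.11). Its counts were shared mainly by 3 coding transcripts. Of these, Slc39a8-206 held 51.1% in the mean of TCR alone and 46.9% in TCR+DMGV, Slc39a8-201 24.7% and 27.5%, and Slc39a8-205 13.2% and 17.9%. Gm43429, inside Slc39a8 on the same strand, had 16, 12 and 15 counts in TCR alone against 4, 8 and 4 in TCR+DMGV. It was not called (log2 fold change -1.49, SE 0.56). Also inside Slc39a8, Gm43428 had at most 4 counts and 4933401H06Rik none.

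Of the exporters, Slc30a1 (ENSMUSG00000037434.7, chr1:191906767-191913247) encodes ZnT1, which carries zinc out of the cell. It had 15.6, 16.6 and 12.2 CPM in TCR alone and 14.04, 13.96 and 14.61 in TCR+DMGV, with the lowest value again in TCR alone replicate 3. The log2 fold change was -0.06 (SE 0.14), and -0.17 without both samples that stood apart. The antisense gene 1700034H15Rik overlaps 761 bases of Slc30a1 and had 73 to 109 counts.

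ZnT5 and ZnT7 load zinc into the early secretory pathway, where it is built into enzymes. Slc30a5 (ENSMUSG00000021629.10, chr13:100802648-100833427) had 76.5, 70.8 and 70.4 CPM in TCR alone and 72.8, 85.6 and 77.8 in TCR+DMGV, with a log2 fold change of 0.12 (SE 0.09). A shorter coding form, Slc30a5-205, was given 893, 219 and 0 counts in TCR alone but 0 in each TCR+DMGV sample, so 1 TCR alone sample was like the TCR+DMGV samples. The main form, Slc30a5-201, had 14.9, 17.7 and 19.99 FPKM in TCR alone and 20.5, 23.6 and 21.3 in TCR+DMGV, higher in all 3 samples, and it was not called (log2 fold change 0.33, SE 0.15). Slc30a7 (ENSMUSG00000054414.4, chr3:115938973-116007406) had 33.1, 40.4 and 38.7 CPM against 35.8, 36.5 and 38.05. The groups overlapped, with a log2 fold change of -0.02 (SE 0.10). On its other strand lie the pseudogenes Gm43106 with 21 to 37 counts and Gm6649 with 32 to 94, and Mir669n with at most 1.

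Transcripts of the other 9 genes were tested in the same way. Over the 10 genes 45 transcripts were listed, 44 had a count and 24 passed the filter on low counts, of which 20 belonged to the other 9 genes. None of these 20 had an edgeR adjusted p under 0.05, nor did any of all 38401 transcripts tested. At an unadjusted threshold of 0.05 there were 0 of 20, beside 3.22% of all transcripts, and DESeq2 called 0 of 36, with 1 at the unadjusted threshold. The FPKM of the groups lay apart for 2 of 20 (Slc30a5-201, higher in TCR+DMGV, and the retained-intron model Slc39a8-204, lower), beside 8.95% of all transcripts. Summed over its transcripts, the FPKM of Slc30a5 had overlapping groups. In Slc39a1, Slc39a6, Slc39a10, Slc30a1 and Slc30a7 a single form, Slc39a1-201, Slc39a6-201, Slc39a10-201, Slc30a1-201 and Slc30a7-201, held at least 96.0% of the counts in the mean of either group. Whether the transcripts of a gene changed unequally could be tested for 5 of the 9 (Slc39a3, Slc39a6, Slc39a7, Slc39a8 and Slc39a10), and 0 of 5 were called, beside 1.58% of 7788 genes. At the unadjusted threshold there were 0 of 5 in edgeR and 0 of 5 in limma, and 7.47% of all genes in edgeR. Without the 2 samples that stood apart, 6 could be tested and Slc30a5 and Slc39a10 were called, beside 4.4% of 7974 genes, from 2 samples a group.

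Nor was any of the other zinc genes called. The list held the other Slc39 and Slc30 genes, the metallothioneins Mt1 to Mt4, Mtf1, Tmem163 and Cbwd1, a zinc chaperone gene, 21 in all. Of these, 4 had no count in any sample, 13 passed the filter and 0 were called, with 0 of 13 at an unadjusted threshold of 0.05 and 0 of 17 called by DESeq2. Their median log2 fold change was 0.006. The highest in FPKM were Cbwd1 at 9.44 to 16.1, Slc39a11 at 8.65 to 10.5 and Slc30a6, which encodes the partner of ZnT5, at 7.30 to 9.09, and each had overlapping groups. The metallothionein genes Mt1 and Mt2 were also not called, with log2 fold changes of -0.19 (SE 0.16) and 0.09 (SE 0.46). Nor was Mtf1, which encodes their activator (log2 fold change 0.11, SE 0.11).

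**Figure D5:**
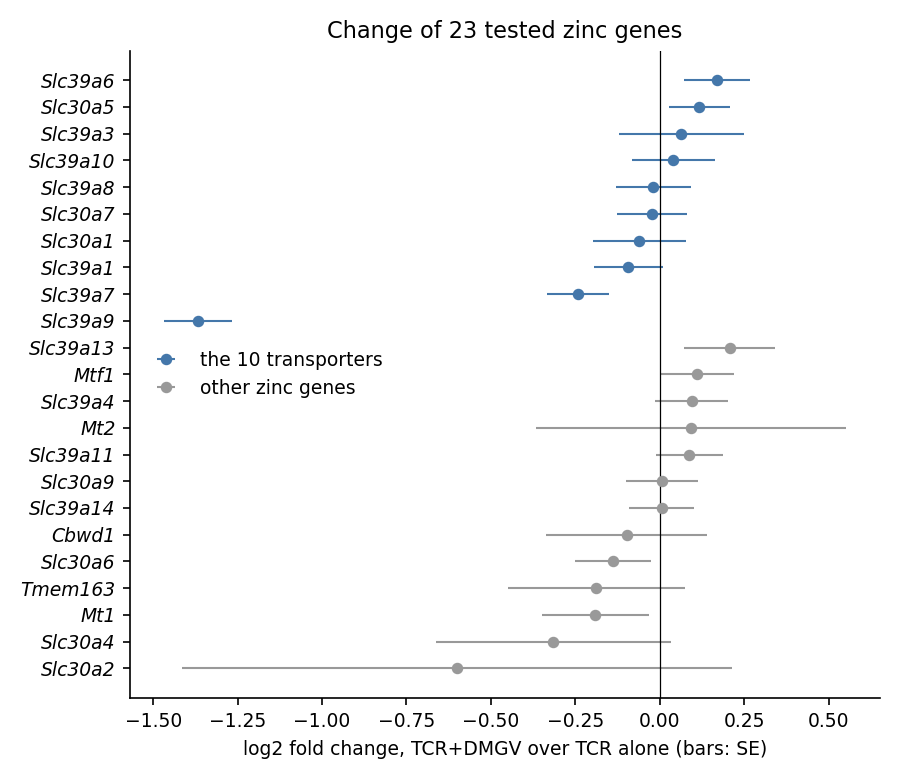
Log2 fold change of TCR+DMGV over TCR alone for the 23 zinc genes tested, from the edgeR fit over all genes, with bars of 1 SE (n = 3 a group). Slc39a9, which was selected on this change, is at -1.37, and the other 9 transporters lie between -0.24 and 0.17.

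The genes whose log2 CPM over the 6 samples was most like that of Slc39a9 were Otulin (Pearson r = 0.990), Marcksl1 (0.984), Gabpb1 (0.978), H2-T10 (0.977) and Armt1 (0.972), among 9034 candidates whose mean log2 CPM exceeded 3. The samples share the 2 groups and the libraries, and Slc39a9 is separated by group, so genes separated by group come first. Armt1 and Gabpb1 had the larger changes of these, with log2 fold changes of -0.96 (SE 0.11) and -0.73 (SE 0.10). Among the other 9 transporters the correlation was 0.829 for Slc39a7 and between -0.668 and 0.444 for the rest.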

How the data were processed

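RNA of 6 mouse T cell samples, 3 TCR alone and 3 TCR+DMGV, was sequenced from mRNA-enriched libraries. Per the labels, reads were mapped with HISAT2 2.0.4 to mm9, but 99.7% of the gene and 99.6% of the transcript identifiers matched GENCODE M21, which annotates GRCm38, so coordinates and sequences come from that annotation. The authors calculated expression with StringTie. The deposited count tables hold whole numbers that were not normalized, for genes and for transcripts, and the step from coverage to counts and the strand setting are not given in the sources used here, so a count may not be a single read. The deposited FPKM tables correct these for length and library size.

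Genes were tested with edgeR 4.0.16 in R 4.3.3 (TMM, filterByExpr, quasi-likelihood, two-sided, Benjamini-Hochberg over all genes, threshold 0.05), transcripts likewise, and transcript usage with its diffSpliceDGE on genes with several transcripts past the filter. Gene counts equalled the sum of transcript counts for 99.7% of genes. The edgeR gene, transcript and usage fits and the usage test of limma 3.58.1 (voom, diffSplice) were tested on simulated data. There the edgeR usage test called more unchanged genes than its threshold allows and limma did not, so the edgeR usage calls are loose. The other alternatives were not tested on simulated data. The members and lists were chosen with earlier results of these data known. To be named were all members, the 3 highest other zinc genes in FPKM and the 5 genes most like Slc39a9. So were every gene overlapping a member on either strand, the next genes beside Slc39a9, and transcripts holding 10% or more of a gene's counts. Mt1, Mt2 and Mtf1 were named in addition. The alternatives were DESeq2 1.42.0, other size factors, filters, units (log2(FPKM + 1) and log2(FPKM + 0.1), with limma), summed transcripts, a replicate block and left-out samples. The fold change of log2(summed transcript FPKM + 1) was added after the data were seen. With 3 samples a group, p-values measure only the spread between these samples. No pair of samples agreed within sampling noise (median chi-square per gene 3.89 to 8.93).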

Additional observations from a re-analysis of the deposited data

How the results depend on the processing

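Slc39a9 was lower in TCR+DMGV in 15 of 15 alternatives, with log2 fold changes from -1.43 to -0.55, the last on log2(summed transcript FPKM + 1), added after the data were seen, and -0.99 on log2(gene FPKM + 1). These alternatives reuse the samples on which Slc39a9 was selected, so their shared direction is a description and no test. Without a pseudocount the log2 ratio of means was -0.62 for summed transcript FPKM and -1.39 for gene FPKM. The adjusted threshold by which it was chosen was not reached with the replicate block, on an FPKM scale, or when any single sample other than TCR+DMGV replicate 1 was left out. Its place by level in TCR alone was 6 in every alternative. Of the other 9 transporters 0 were called at gene and at transcript level in all alternatives run, and of the other zinc genes 0. The usage test called 0 to 1 of the other genes when 1 sample was left out: 1 without TCR alone replicate 3 (Slc30a5) and 1 without TCR+DMGV replicate 1 (Slc39a10), and 2 without both. The cause was not tested.

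Small differences changed sign with single samples left out: Slc39a3 ran from -0.10 to 0.22, Slc39a8 from -0.079 to 0.070, Slc39a10 from -0.072 to 0.13, Slc30a1 from -0.17 to 0.026 and Slc30a7 from -0.12 to 0.032. Without both samples that stood apart, Slc39a8 was at 0.084, Slc39a10 at -0.042 and Slc30a7 at 0.024. The deviations of same-numbered samples correlated at -0.15, 0.12 and -0.15, and those of other pairs across the groups at -0.20 to 0.31. The highest was TCR alone replicate 3 with TCR+DMGV replicate 1. With 3 samples a group these values cannot decide whether the replicate numbers pair the samples. With the replicate block the log2 fold change of Slc39a9 was -1.37, and 0 of the other 9 genes were called.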
